A study of Homo sapiens with 17 samples.

Results

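Depletion of mutant p53 in unstimulated SW480 colon cancer cells was measured by mRNA-seq as the difference between cells with a hairpin against p53 and cells with a hairpin against LacZ, before any TNF-α was added. The comparison rests on 2 of the 17 samples of the series, which hold 4 of its 8 mRNA-seq libraries. SW480 is an established line from a human colon adenocarcinoma that makes a missense mutant of p53 (mutp53). Both groups were SW480 cells with a stably integrated, inducible short hairpin, were selected with puromycin at 1.5 µg/ml and had the hairpin induced with doxycycline at 1 µg/ml. The hairpin was directed against LacZ in control cells and against p53 in mutp53-depleted cells, and the TNF-α time was 0 h in both. TNF-α at 12.5 ng/ml for 16 h was given to the other 4 libraries, whose values are set beside the 0 h values in places. Each hairpin was carried by 1 cell line, so an effect of p53 depletion and a difference between the cell lines cannot be told apart in these data. Replicates A and B of each group are called biological replicates in the study, and p-values measure the spread between them.

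Wild-type p53 is a transcription factor that stops the cell cycle or starts cell death after DNA damage and other stress. Missense mutants found in tumours bind its usual sites poorly, accumulate to high levels and can act on transcription together with other factors. In the colon epithelium, Wnt signalling sustains the dividing cells of the crypt, Notch signalling sets the balance of absorptive and secretory cells, and transcription factors such as HNF4A and the FOXA proteins direct differentiation.

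Values are normalized reads, which are the reads on the exons of a gene scaled by the depositors to 1 common total per library. Of 26457 genes listed, 14800 had a mean of at least 2.5 normalized reads over the 8 libraries and were tested. The gene just inside this limit had a mean of 2.5075 and the gene just outside one of 2.4975. A log2 fold change is the difference of log2(normalized reads + 1) between mutp53-depleted and control cells, given with its standard error (SE, n = 2 per group) from limma, and is closer to 0 than the log2 ratio for weakly expressed genes. Where a gene is said to rise or fall by a value, the value is on this log2 scale with its SE. A gene was called if it changed by 2-fold or more with an adjusted p (Benjamini-Hochberg) below 0.05. The 4 libraries held between 6108488 and 13809578 reads on genes. Replicates differed by more than sampling noise, with a chi-square per gene of 3.08 in control and 2.08 in mutp53-depleted cells. In bulk RNA, fewer cells that express a gene and less RNA per cell cannot be told apart.

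At 0 h 2285 genes were called, which are 15.4% of those tested. The 872 genes called higher were 5.89% and the 1413 genes called lower were 9.55% of tested genes, and the median log2 fold change of all tested genes was 0.03. Most changes were moderate. Among genes called higher, 633 changed between 2-fold and 4-fold, 214 between 4-fold and 16-fold and 25 by more. Among genes called lower the corresponding counts were 1048, 324 and 41. Replicates A and B gave the same sign for all 2285 called genes, and both gave at least a 2-fold change in 1783 of them. Libraries were paired by letter, which is only a name. The call used these same libraries, so the agreement and the lack of overlap given next follow largely from it. The 2 libraries of a group did not overlap those of the other in 2283 called genes, against 40.2% of all tested genes with both mutp53-depleted libraries above both control libraries and 37.2% with both below. The libraries taken after 16 h of TNF-α do not enter the 0 h fold changes, but they share with them the filter and the estimate of spread of the fit. In them 496 of the genes called higher and 1009 of those called lower were called in the same direction, where 5.03% of tested genes were called higher and 10.2% lower. Their median log2 fold changes at 16 h were 1.17 and -1.37.

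**Figure D1:**
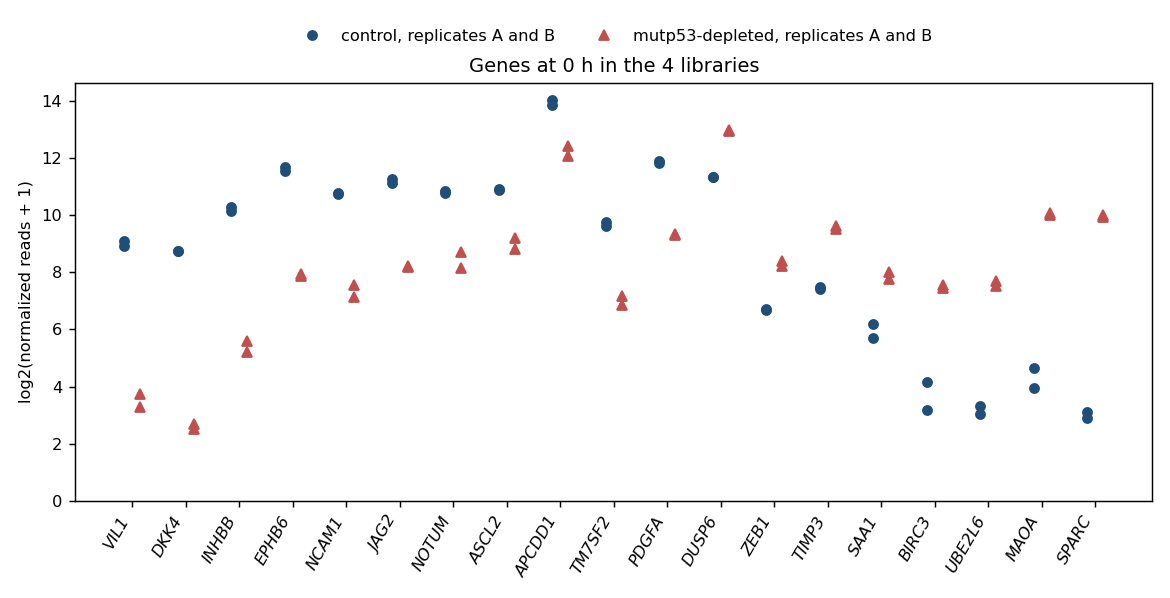
log2(normalized reads + 1) of 19 genes at 0 h in each of the 4 libraries, with circles for the 2 control libraries and triangles for the 2 mutp53-depleted libraries. In each gene the 2 libraries of a group lie close together and apart from those of the other group, from VIL1 at the left to SPARC at the right. The genes were chosen among those called, so the groups lie apart by that choice.

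Of 33 tested genes that wild-type p53 activates, 1 was called higher and 3 lower, and their median log2 fold change was -0.25. These are 3.03% and 9.09% of the list, beside 5.89% and 9.55% of all tested genes, and such shares are no result about the list. The cell cycle inhibitor CDKN1A, the best known of them, had 959 and 944 normalized reads in control and 799 and 749 in mutp53-depleted libraries, a log2 fold change of -0.30 ± 0.08 that was not called. MDM2, the ubiquitin ligase that degrades p53, had a log2 fold change of 0.80 ± 0.09 and the cell death gene BAX one of -0.99 ± 0.10, and neither reached 2-fold in limma. MDM2 lies on 12q in a run of 192 tested genes that had a median of 0.60. BAX was called lower by edgeR's quasi-likelihood test, at -1.05, and by DESeq2, at -1.03, and the median of its neighbours was -0.53. GDF15, a stress-induced cytokine of the TGF-β family, fell furthest, from 388 and 362 normalized reads in control to 36.2 and 26.1 in mutp53-depleted libraries, with a log2 fold change of -3.57 ± 0.22 (adjusted p = 3.7e-10). The membrane protein CD82 fell by 2.15 ± 0.10, and SFN, which encodes 14-3-3σ, fell by 1.45 ± 0.08. TIGAR, a regulator of sugar metabolism, rose by 1.27 ± 0.10, and the median of its 50 neighbours, the 25 tested genes on each side of it, on chromosome 12 was 0.89. The p53 relative TP73 had a log2 fold change of -0.90 ± 0.14 and was not called.

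Genes of cholesterol synthesis were mostly lower. Of 27 tested genes of cholesterol synthesis, uptake and their control, 13 were called lower and 0 higher, 26 had a negative log2 fold change and the median was -0.79, beside 9.55% called lower and a median of 0.03 over all tested genes. When cells lack sterols, SREBP proteins move from the endoplasmic reticulum to the nucleus and, usually together with the CCAAT-binding factor NF-Y and Sp1, activate these genes. The largest fall was in TM7SF2, a sterol reductase of the pathway, with 790.3 and 867 normalized reads in control and 143 and 115 in mutp53-depleted libraries and a log2 fold change of -2.68 ± 0.13 (adjusted p = 2.1e-11). INSIG1, which holds SREBP back in the endoplasmic reticulum and is itself an SREBP target, had 1893 and 1963 normalized reads in control and 683 and 575 in mutp53-depleted libraries and fell by 1.62 ± 0.15. DHCR7, an enzyme of the last steps of the pathway, had 4552 and 4833 normalized reads in control and 1948 and 1564 in mutp53-depleted libraries. Its log2 fold change was -1.43 ± 0.10. The synthesis enzyme MSMO1 had 1071 and 1024 normalized reads in control and 466 and 369 in mutp53-depleted libraries, and squalene epoxidase (SQLE) had 2504 and 2729.9 normalized reads in control and 1359.7 and 1133 in mutp53-depleted libraries. CYP51A1, MVD, EBP, HSD17B7 and LSS were also called lower, and the log2 fold changes of these enzymes ran from -1.33 ± 0.15 (MSMO1) to -1.05 ± 0.09 (LSS). The genes of the SREBP factors themselves, SREBF1 at -0.68 ± 0.12 and SREBF2 at -0.62 ± 0.10, did not reach 2-fold. HSD17B7 had 111 and 123 normalized reads in control and 75.7 and 37.0 in mutp53-depleted libraries and was not called by edgeR. INSIG1 lies on chromosome 7, where the median of its neighbours was -0.63, and LSS on chromosome 21, where it was -0.70. With the neighbour median removed 10 of the 27 genes were still called lower. At 16 h 4 of the 27 were called lower and the median was -0.55. The difference between the times was itself past the threshold for 2 of them, CYP51A1 and DHCR7, whose falls were smaller at 16 h. Over all 14800 tested genes that difference was past it for 424.

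**Figure D2:**
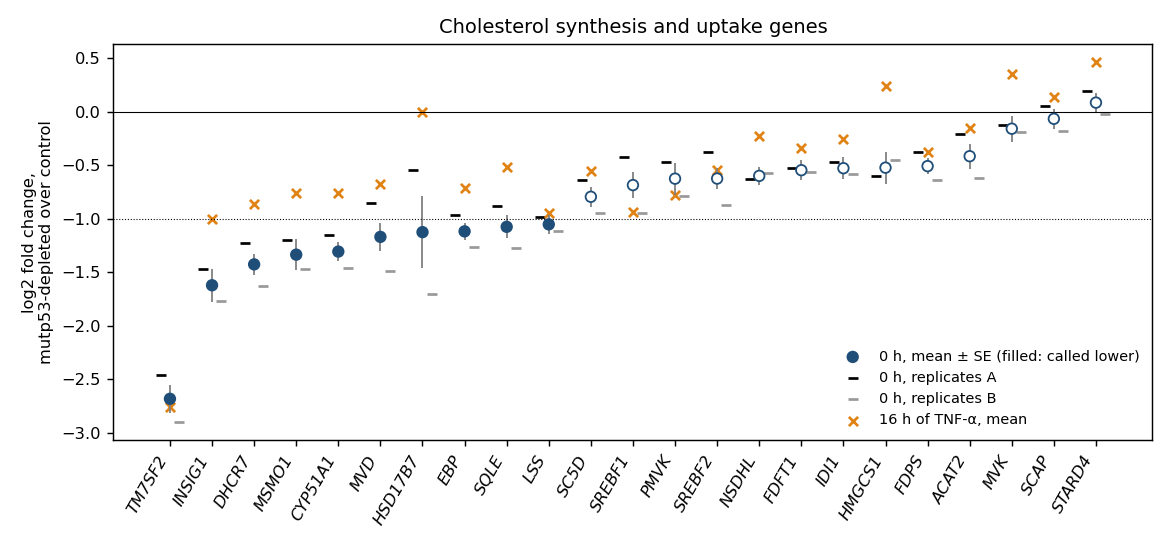
log2 fold change of mutp53-depleted over control cells for 23 of the 27 cholesterol synthesis and uptake genes, as circles with SE bars at 0 h (filled where called lower), dashes for replicates A and B and crosses for 16 h of TNF-α. Of these circles 10 are filled, from TM7SF2 to LSS, and only STARD4 lies above 0.

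The promoters of 4 of the genes that fell are shown with the letters CCAAT, which NF-Y binds, since NF-Y works beside SREBP at such genes. Each runs from 250 bases before to 50 bases after the transcription start in RefSeq on GRCh38.p14, in the direction of the gene, with CCAAT on either strand (CCAAT or ATTGG) in capitals. They lie at chr11:65111622-65111921 on the plus strand (TM7SF2), chr7:155297628-155297927 on the plus strand (INSIG1), chr4:165327419-165327718 on the plus strand (MSMO1) and chr16:88663042-88663341 on the minus strand (MVD).
TM7SF2: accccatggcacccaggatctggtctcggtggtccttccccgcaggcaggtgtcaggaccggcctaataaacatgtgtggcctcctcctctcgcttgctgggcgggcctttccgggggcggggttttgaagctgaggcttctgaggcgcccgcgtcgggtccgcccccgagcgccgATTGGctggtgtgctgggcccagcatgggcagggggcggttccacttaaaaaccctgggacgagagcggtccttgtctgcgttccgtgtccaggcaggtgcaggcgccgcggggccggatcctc
INSIG1: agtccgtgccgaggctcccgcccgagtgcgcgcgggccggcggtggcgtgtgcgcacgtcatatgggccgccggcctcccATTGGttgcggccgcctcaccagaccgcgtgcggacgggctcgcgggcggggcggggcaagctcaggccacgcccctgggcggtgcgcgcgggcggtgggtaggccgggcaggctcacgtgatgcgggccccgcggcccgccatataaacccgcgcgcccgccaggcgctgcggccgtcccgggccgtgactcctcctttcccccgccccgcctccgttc
MSMO1: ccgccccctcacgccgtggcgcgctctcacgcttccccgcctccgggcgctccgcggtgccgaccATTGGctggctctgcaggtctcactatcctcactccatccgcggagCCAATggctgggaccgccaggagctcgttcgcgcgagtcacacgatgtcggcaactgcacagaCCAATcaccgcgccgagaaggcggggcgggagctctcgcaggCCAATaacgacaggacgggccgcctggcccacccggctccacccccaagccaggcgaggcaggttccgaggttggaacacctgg
MVD: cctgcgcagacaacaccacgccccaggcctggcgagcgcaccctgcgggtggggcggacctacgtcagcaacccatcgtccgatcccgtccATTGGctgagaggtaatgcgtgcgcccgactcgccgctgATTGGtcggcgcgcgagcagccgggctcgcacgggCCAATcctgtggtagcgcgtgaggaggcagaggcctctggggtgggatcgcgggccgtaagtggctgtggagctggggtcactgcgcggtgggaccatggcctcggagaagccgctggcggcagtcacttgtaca
CCAAT occurs 1 time in the promoter of TM7SF2, 1 time in that of INSIG1, 4 times in that of MSMO1 and 3 times in that of MVD. It was found in 8 of the 9 genes called lower that had a promoter in the table and in 15 of all 20 list genes that had one, against 35.7% of 27305 promoters of the same length. The classical sterol element TCACNCCAC, searched on both strands, was in 1 of the 20, that of SREBF2, and in 1.15% of all promoters. A promoter was in the table for 74.1% of the list and 77.9% of all tested genes, and the counts are a description without a test. The genes with a CCAAT include HMGCS1, whose log2 fold change of -0.52 ± 0.15 did not reach 2-fold.

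Other metabolic genes moved singly, and the counts below stand beside 5.89% higher and 9.55% lower of all tested genes. ACSS2, which makes acetyl-CoA from acetate, had 1769 and 1944 normalized reads in control and 616 and 548 in mutp53-depleted libraries and fell by 1.67 ± 0.09, and the desaturase FADS2 fell by 1.05 ± 0.10 on a neighbour median of -0.17, where 1 was called higher and 2 lower of 14 tested genes of fatty acid synthesis and uptake. FADS2 was not called with that median removed, with GC content and length trends removed or without replicate B of mutp53-depleted cells, at -0.88, -0.97 and -0.89. The gene that rose was OLR1, a receptor for oxidized lipoprotein and no synthesis enzyme, encoded on 12p, at 2.01 ± 0.31 on a neighbour median of 0.91. Of 23 tested monoamine, retinoid and xenobiotic enzymes, 1 was called higher and 6 lower. ALDH1A3, which makes retinoic acid, had 6689.8 and 6614 normalized reads in control and 1393 and 1426 in mutp53-depleted libraries and fell by 2.24 ± 0.07, and the aldehyde dehydrogenase ALDH3A1 fell by 3.44 ± 0.26. MAOA, the mitochondrial enzyme that degrades serotonin and noradrenaline, went the other way, with 14.5 and 24.2 normalized reads in control and 1029 and 1079 in mutp53-depleted libraries and a log2 fold change of 5.74 ± 0.16. Of 14 tested serine and one-carbon enzymes 2 were called lower and 0 higher, namely CBS at -1.76 ± 0.14 and ALDH1L1 at -2.43 ± 0.47. Of 23 glycolysis genes 1 was called higher and 1 lower, LDHB at 1.55 ± 0.07 and PFKL at -1.12 ± 0.08, and of 21 nucleotide synthesis genes 1 was called higher and 0 lower, GMPS at 1.07 ± 0.09. The neighbour medians of these 3 genes were 1.22, -0.73 and 0.76, and none of the 3 was called with the neighbour median removed.

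Genes of intestinal differentiation were called in both directions. Of 15 tested, 3 were called higher and 7 lower, beside 5.89% and 9.55% of all tested genes. Their signs were split, with 7 log2 fold changes above 0 and 8 below, and the median was -0.82. Villin 1 (VIL1), the actin-bundling protein of the brush border, had 545 and 480.2 normalized reads in control and 8.71 and 12.3 in mutp53-depleted libraries, a log2 fold change of -5.49 ± 0.51 (adjusted p = 6.2e-08). HNF4A, a nuclear receptor that directs enterocyte genes, had 546 and 547 normalized reads in control and 135 and 128 in mutp53-depleted libraries, a change of -2.05 ± 0.14. The pioneer factor FOXA2 had 93.6 and 97.0 normalized reads in control and 17.4 and 23.3 in mutp53-depleted libraries. Its relative FOXA1 rested on 59 against 3 reads, a ratio of 21.4 (exact 95% interval 6.99 to 107) in control over mutp53-depleted cells, and such intervals cover counting error only. The neuroendocrine granule protein CHGA fell by 3.19 ± 0.49. Each of these genes was low in both mutp53-depleted libraries, and their neighbour medians lay between -0.05 (VIL1) and 0.19 (CHGA). The genes called higher were GATA6, a factor of endoderm, with 5.81 and 9.09 normalized reads in control and 59.6 and 64.4 in mutp53-depleted libraries, the alkaline phosphatase ALPL, at 2.87 ± 0.43, and lysozyme (LYZ), at 1.63 ± 0.59, which was not called under 6 of the alternatives. GATA6 rose by 2.93 ± 0.35.

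The identity of the line was checked with 12 colon epithelial markers, of which 10 were tested and 5 were called lower and 0 higher. Over all tested genes 9.55% were called lower and 5.89% higher. EPCAM, the adhesion molecule of epithelial cells, had 5976 and 5687 normalized reads in control and 2404 and 2367 in mutp53-depleted libraries and fell by 1.29 ± 0.08. The keratins KRT8 and KRT18 kept high counts, KRT18 with 27594 and 25847 normalized reads in control and 18744 and 18378 in mutp53-depleted libraries, and had log2 fold changes of -0.31 ± 0.08 and -0.52 ± 0.07, and E-cadherin (CDH1) had one of -0.81 ± 0.13, none of them called. The tight junction claudins CLDN7, CLDN4 and CLDN3 fell, with log2 fold changes of -1.71 ± 0.09, -1.48 ± 0.09 and -1.82 ± 0.19. CLDN4 and CLDN3 lie on chromosome 7, with neighbour medians of -0.71 and -0.68. Of 17 tested tight junction genes 1 was called higher and 4 lower, and the one that rose was cingulin (CGN), at 1.10 ± 0.28. Among 18 cadherin, catenin and desmosome genes 2 were called higher and 3 lower. Few markers of other cell types had enough reads to be tested. For fibroblasts 3 of 11 markers were tested and 3 had no read at 0 h, and the summed level of the list was between 129.9 and 148 normalized reads in control and between 175 and 206 in mutp53-depleted libraries. For leukocytes 4 of 12 were tested, 4 had no read, and the sums were 47.0 to 61.7 and 72.4 to 74.0. For endothelium 3 of 9 were tested, 3 had no read, and the sums were 464 to 528 and 213 to 222. COL3A1, DCN and POSTN of the fibroblast list, PTPRC, CD3D, MS4A1 and TYROBP of the leukocyte list and CDH5, KDR and TEK of the endothelial list had no read at 0 h. Of the tested fibroblast markers COL1A1 and PDGFRB rose by 1.51 ± 0.24 and 3.53 ± 0.41 and ACTA2 fell by 2.42 ± 0.31. Of the leukocyte markers CD68 and LYZ rose by 1.09 ± 0.25 and 1.63 ± 0.59 and the other two were not called. Of the endothelial markers VWF rose by 1.84 ± 0.52, ESAM was not called and EGFL7, which made up most of the sum, had 488 and 439 normalized reads in control and 151 and 143 in mutp53-depleted libraries and fell by 1.65 ± 0.13. The part of other cell types in the values was not tested.

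Among regulators of the epithelial to mesenchymal transition, 2 were called higher and 1 lower out of 14 tested. Over all tested genes 5.89% were called higher and 9.55% lower. ZEB1, a repressor of E-cadherin, had 105 and 102 normalized reads in control and 299 and 332 in mutp53-depleted libraries and rose by 1.60 ± 0.12. The homeobox factor PRRX1 rose by 1.75 ± 0.37 and EHF, an epithelial ETS factor, fell by 3.04 ± 0.23. Of 18 tested keratin and intermediate filament genes, 6 were called higher and 2 lower. KRT23 had 3613 and 3595 normalized reads in control and 10439 and 10356 in mutp53-depleted libraries, a change of 1.53 ± 0.08, and KRT81 and KRT7 changed by 2.25 ± 0.12 and 1.69 ± 0.26. Vimentin (VIM), the filament of mesenchymal cells, had 5351 and 5274 normalized reads in control and 10853 and 10829 in mutp53-depleted libraries and a log2 fold change of 1.03 ± 0.07, just past 2-fold, and was not called by edgeR or with GC content and length trends removed. Nestin (NES) fell by 2.03 ± 0.10. Most keratin genes lie in clusters on chromosomes 12 and 17 whose neighbour medians were above 0, such as 0.49 for KRT23, and 4 instead of 6 were called higher with the neighbour median removed.

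Wnt pathway genes were called mostly in the lower direction. Of 33 ligands, receptors and secreted inhibitors, 4 were called higher and 11 lower, that is 33.3% lower beside 9.55% of all tested genes, with a median of -0.40. With GC content and length trends removed 8 were called lower and the median was -0.39. DKK4, a secreted Wnt antagonist that Wnt signalling itself induces, had 429.6 and 432 normalized reads in control and 4.69 and 5.48 in mutp53-depleted libraries and a log2 fold change of -6.15 ± 0.35. The ligand WNT6 had 2249 and 2363 normalized reads in control and 615 and 473 in mutp53-depleted libraries, a log2 fold change of -2.09 ± 0.15, and the ligand WNT7A and the receptor FZD8 fell, with log2 fold changes of -5.47 ± 0.59 and -1.89 ± 0.31. The genes called higher were the antagonist DKK1, at 1.30 ± 0.17, the ligand WNT9A, at 1.95 ± 0.26, the receptor FZD2, at 1.15 ± 0.18, and the co-receptor LRP6, at 1.02 ± 0.09. LRP6 lies on 12p with a neighbour median of 1.07, and its sign turned with that median removed.

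Of 25 tested Wnt target and crypt stem cell genes, 8 were called lower and 0 higher and the median was -0.68. With GC content and length trends removed the same number was called and the median was -0.28. NOTUM, a secreted enzyme that inactivates Wnt ligands, had 1758 and 1833 normalized reads in control and 413 and 285 in mutp53-depleted libraries and fell by 2.38 ± 0.21. ASCL2, the transcription factor of crypt stem cells, had 1922 and 1906 normalized reads in control and 582 and 449.7 in mutp53-depleted libraries and fell by 1.90 ± 0.12. APCDD1, a membrane inhibitor of Wnt signalling, was among the most highly counted genes, with 16870.3 and 14979.9 normalized reads in control and 5426 and 4260.2 in mutp53-depleted libraries and a log2 fold change of -1.73 ± 0.16. EPHB2, a receptor that positions crypt cells, fell by 2.11 ± 0.15, and TDGF1 fell by 2.40 ± 0.62. In all of these both control libraries were above both mutp53-depleted libraries, as in 37.2% of all tested genes. This follows largely from their having been called. The Wnt targets AXIN2 and MYC were not called. AXIN2 had a log2 fold change of 0.45 ± 0.07 and MYC one of 0.42 ± 0.06, both above 0 and under 2-fold. AXIN2 lies on 17q in a run of 35 tested genes with a median of 0.62.

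Of 24 tested Notch pathway genes 6 were called lower and 0 higher, beside 9.55% and 5.89% of all tested genes. Their log2 fold changes were above 0 in 11 and below 0 in 13, and the median was -0.07. The ligand JAG2 had 2221 and 2438 normalized reads in control and 298 and 291 in mutp53-depleted libraries, a log2 fold change of -2.98 ± 0.10 (adjusted p = 1.2e-13). The ligands DLL4 and DLL1 fell, with log2 fold changes of -1.89 ± 0.42 and -1.87 ± 0.29, the receptor NOTCH1 fell by 1.29 ± 0.09, and the HES family genes HES6 and HES4 changed by -2.39 ± 0.16 and -2.08 ± 0.17. NOTCH1 was not called with the neighbour median or with GC content and length trends removed.

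Several ligands and receptors of other pathways were called lower, some by more than 4-fold. Of 37 tested genes of the TGF-β superfamily, 3 were called higher (8.11%) and 7 lower (18.9%), with a median of 0.11. The counts of this paragraph stand beside 5.89% called higher and 9.55% called lower over all tested genes. INHBB, a subunit of activin and inhibin, had 1143 and 1239 normalized reads in control and 46.9 and 35.6 in mutp53-depleted libraries and fell by 4.83 ± 0.14, and BMP8B fell by 2.27 ± 0.30. The ligand TGFB2 had 56.6 and 40.9 normalized reads in control and 220.5 and 230.3 in mutp53-depleted libraries and rose by 2.20 ± 0.18, as did the antagonists NOG, at 2.40 ± 0.40, and CHRD, at 1.16 ± 0.47, which was not called by several alternatives. Of 28 tested receptor tyrosine kinases, 2 were called higher and 8 lower, with a median of -0.60. EPHB6, an ephrin receptor without kinase activity, had 3285 and 2997 normalized reads in control and 245 and 230.3 in mutp53-depleted libraries and fell by 3.72 ± 0.10, and its neighbours on chromosome 7 had a median of -0.49. EPHA1, on 7q in a run of 179 tested genes with a median of -0.62, fell by 2.07 ± 0.23, and ALK fell by 1.76 ± 0.22. PDGFRB, a receptor typical of mesenchymal cells, rose from 4.35 and 6.06 normalized reads in control to 69.7 and 69.9 in mutp53-depleted libraries, by 3.53 ± 0.41, and LTK by 1.16 ± 0.36. Ligands of the PDGF receptors moved apart. PDGFA had 3604 and 3784 normalized reads in control and 635 and 647 in mutp53-depleted libraries and fell by 2.52 ± 0.09, beside a neighbour median of -1.27 at the tip of 7p, whereas PDGFC had 2.90 and 1.51 normalized reads in control and 38.9 and 32.9 in mutp53-depleted libraries and rose by 3.55 ± 0.56. Among 26 tested growth factors, 3 were called higher and 7 lower. EDN3, an endothelin, had 197 and 115 normalized reads in control and 0 and 0 in mutp53-depleted libraries, at least 126-fold lower when 3 reads are allowed over the 2 depleted libraries. ARTN, a neurotrophic ligand, fell by 2.28 ± 0.24, and EDN1 and FGF18 rose by 1.50 ± 0.33 and 1.23 ± 0.20.

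Of 41 tested genes of axon guidance and neuronal adhesion, 6 were called higher and 16 lower, which is 14.6% and 39.0% beside 5.89% and 9.55% of all tested genes, with a median of -0.54. With GC content and length trends removed 11 were called lower and the median was -0.26. NCAM1, the neural cell adhesion molecule, had 1696 and 1732 normalized reads in control and 141 and 186 in mutp53-depleted libraries and fell by 3.39 ± 0.14. The sortilin-family receptor SORCS2 had 267 and 327 normalized reads in control and 2.01 and 1.37 in mutp53-depleted libraries, a log2 fold change of -6.80 ± 0.29, and the synaptic adhesion protein TENM2 228 and 244 normalized reads in control and 2.01 and 1.37 in mutp53-depleted libraries, a log2 fold change of -6.47 ± 0.44. The semaphorin receptor PLXNA2 fell by 2.80 ± 0.59. In the other direction SLIT1, a repulsive guidance ligand, had 173 and 174 normalized reads in control and 572 and 548 in mutp53-depleted libraries and rose by 1.68 ± 0.13, EFNA5 rose by 1.38 ± 0.19, and SEMA6A rested on 31 against 1 reads, a ratio of 28.4 (exact 95% interval 4.74 to 1159) in mutp53-depleted over control cells. Of 29 tested ion channel genes 4 were called higher and 8 lower. The potassium channel KCNH2 had 157 and 182 normalized reads in control and 14.1 and 13.7 in mutp53-depleted libraries and fell by 3.51 ± 0.23, and ANO4, of the anoctamin family, fell by 5.82 ± 0.35. KCNH2 lies on 7q in a run of 179 tested genes with a median of -0.62. The calcium-activated potassium channels KCNN4 and KCNMA1 rose by 1.80 ± 0.13 and 1.999 ± 0.35.

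Matrix genes were called in both directions, and the counts below stand beside 5.89% higher and 9.55% lower of all tested genes. Of 20 tested secreted matrix proteins, 6 were called higher and 4 lower. SPARC, a collagen-binding glycoprotein, had 6.53 and 7.57 normalized reads in control and 988 and 1020.1 in mutp53-depleted libraries, a log2 fold change of 6.97 ± 0.19, and its neighbour median was 0.23. LTBP1, which binds latent TGF-β, rose by 1.78 ± 0.34, and fibulin 1 (FBLN1) and tenascin C (TNC) fell, with log2 fold changes of -2.67 ± 0.31 and -1.56 ± 0.10. Of 16 tested collagens 3 were called higher and 4 lower. COL18A1, the source of endostatin, had 5569 and 6111 normalized reads in control and 1571 and 1213 in mutp53-depleted libraries and fell by 2.08 ± 0.12, beside COL6A1, also on 21q, at -1.46 ± 0.08, and COL9A3, at -1.33 ± 0.09. Their neighbour medians were -0.71, -0.71 and -0.23. COL5A1 had 0 and 0 normalized reads in control and 17.4 and 20.6 in mutp53-depleted libraries, at least 12.5-fold higher, and COL1A1 rose by 1.51 ± 0.24. Of 22 tested laminins and integrins 5 were called lower and 0 higher. The laminin subunit LAMA3 and the integrin ITGB4, which help to anchor epithelial cells to the basement membrane, were both lower. ITGB4 had 5112 and 6017 normalized reads in control and 1961 and 1714 in mutp53-depleted libraries and LAMA3 had 854 and 986 normalized reads in control and 349.8 and 346 in mutp53-depleted libraries. Their log2 fold changes were -1.60 ± 0.09 and -1.40 ± 0.09, and that of ITGB8 was -2.35 ± 0.27. ITGB8 lies on chromosome 7 in a run of 354 tested genes with a median of -0.79. Of 25 tested matrix proteases and inhibitors, 7 were called higher and 3 lower. TIMP3, an inhibitor of metalloproteinases, had 179 and 168 normalized reads in control and 731 and 786 in mutp53-depleted libraries and rose by 2.12 ± 0.11, and the cathepsin CTSS, the plasminogen activator PLAT and its inhibitor SERPINE2 rose by 2.99 ± 0.34, 1.98 ± 0.23 and 1.997 ± 0.16. The lysosomal protease CTSD had 7696 and 7779 normalized reads in control and 2519.7 and 2128 in mutp53-depleted libraries and fell by 1.74 ± 0.08, and TIMP1 fell by 1.02 ± 0.10.

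**Figure D3:**
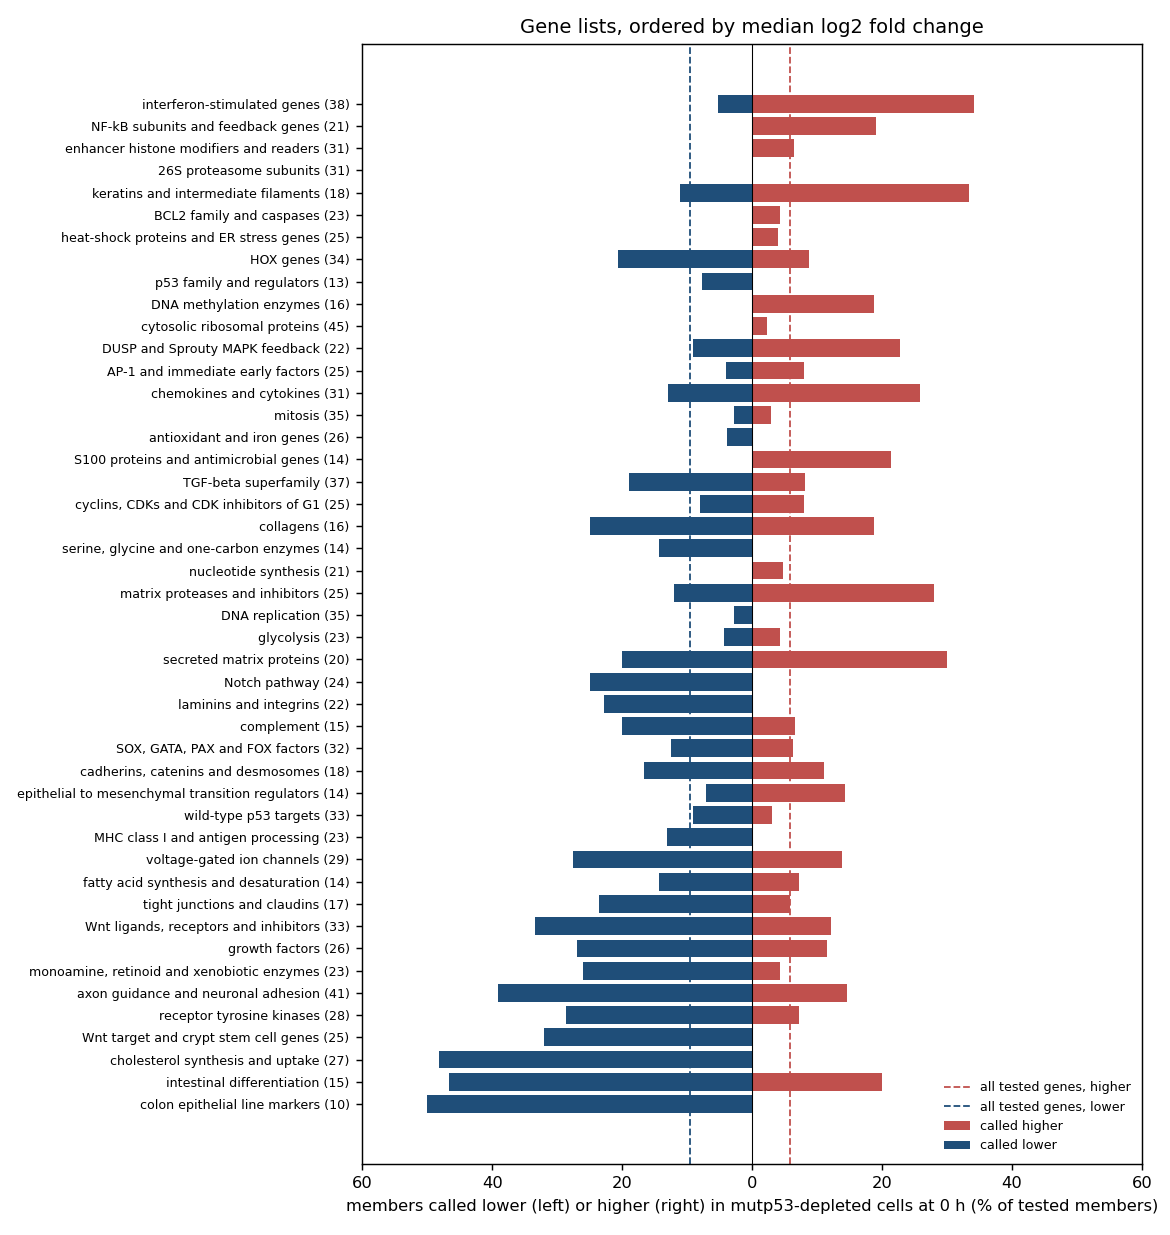
Percentage of the tested members of each gene list with at least 10 of them that were called lower (blue, left) or higher (red, right) in mutp53-depleted cells at 0 h, with the lists ordered by median log2 fold change and the number tested in brackets. Dashed lines mark 5.89% higher and 9.55% lower over all tested genes, and the cholesterol list reaches 48.1% lower and the interferon list 34.2% higher.

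Part of the immune genes were higher before any cytokine was added. Of 38 tested interferon-stimulated genes, 13 were called higher (34.2%) and 2 lower (5.26%), with a median of 0.74. Over all tested genes 5.89% were called higher and 9.55% lower. UBE2L6, the enzyme that transfers ISG15 to proteins, had 7.26 and 9.09 normalized reads in control and 206 and 181 in mutp53-depleted libraries and rose by 4.41 ± 0.22 (adjusted p = 2.8e-11). SAMD9, an antiviral protein, had 16.0 and 6.06 normalized reads in control and 65 and 60.3 in mutp53-depleted libraries and IFI35 22.5 and 13.6 normalized reads in control and 81.8 and 82.3 in mutp53-depleted libraries, rises of 2.54 ± 0.44 and 2.16 ± 0.28. OASL had 0 and 0 normalized reads in control and 4.02 and 13.7 in mutp53-depleted libraries, at least 4.89-fold higher, and was not called without replicate B of mutp53-depleted cells. ISG15 itself had 433 and 341 normalized reads in control and 227 and 226 in mutp53-depleted libraries and a log2 fold change of -0.76 ± 0.12 that did not reach 2-fold, and IFI27 and IFI6 fell, with log2 fold changes of -1.63 ± 0.24 and -1.05 ± 0.21. IFI6 was not called with the neighbour median removed, with GC content and length trends removed or without replicate B of mutp53-depleted cells, at -0.93, -0.97 and -0.89. At 16 h 6 of the 38 were called higher, the median was 0.18, and the difference between the times passed the threshold for 9. Over all 14800 tested genes that difference passed it for 424.

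Of 21 tested NF-κB subunits and feedback genes, 4 were called higher and 0 lower and the median was 0.51. The counts of this paragraph stand beside 5.89% called higher and 9.55% called lower over all tested genes. BIRC3, an inhibitor of apoptosis induced by NF-κB, had 7.98 and 16.7 normalized reads in control and 188 and 176 in mutp53-depleted libraries and rose by 3.86 ± 0.20. NFKBIB, NFKBIZ and TNFAIP3 rose by 1.40 ± 0.09, 1.35 ± 0.31 and 1.32 ± 0.29, where the medians of their neighbours were 0.48, 0.73 and 0.09. NFKBIB and NFKBIZ were not called with those medians removed. TNFAIP3 rested on replicate A, with 8.71 and 12.1 normalized reads in control and 44.2 and 16.4 in mutp53-depleted libraries, and was not called without it. The subunit RELA had 999 and 988 normalized reads in control and 1313 and 1202 in mutp53-depleted libraries and a log2 fold change of 0.34 ± 0.08, within 2-fold. Among 31 tested chemokines and cytokines 8 were called higher and 4 lower, and the count of genes called higher went down to 4 under 3 of the alternatives. The chemokine CX3CL1 had 6.53 and 9.09 normalized reads in control and 64.3 and 60.3 in mutp53-depleted libraries and rose by 2.86 ± 0.31, CSF2 rose by 1.78 ± 0.28, and IL11, TNFSF9 and CXCL16 fell, with log2 fold changes of -1.50 ± 0.33, -1.95 ± 0.25 and -1.07 ± 0.12. The acute phase genes SAA1 and SAA2, neighbours with similar sequence between which reads can be split, had 51.5 and 71.2 normalized reads in control and 259 and 214 in mutp53-depleted libraries and 9.43 and 16.7 normalized reads in control and 42.2 and 48.0 in mutp53-depleted libraries. They rose by 1.94 ± 0.14 and 1.76 ± 0.25, and the iron-binding lipocalin LCN2 by 1.61 ± 0.24. Of the 14 tested S100 proteins and antimicrobial genes 3 were called higher and 0 lower, and the median was 0.11. Of 23 tested genes of MHC class I and antigen processing 3 were called lower and 0 higher. HLA-F and HLA-G, at -1.50 ± 0.22 and -1.47 ± 0.24, are among them and are similar enough to share reads. Of 15 complement genes 1 was called higher (6.67%) and 3 lower (20%). The regulators CD46 and CD55, which protect cells from complement, moved apart, at -1.44 ± 0.09 and 1.44 ± 0.13. The inflammatory caspase CASP4 was the only member called among 23 BCL2 family and caspase genes, at 2.41 ± 0.30.

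Of 8 genes taken from the text of the study, 1 was called higher and 1 lower, beside 5.89% and 9.55% of all tested genes. MMP9, CCL2, UBD, LTB and CPA4 had at most 7.37 normalized reads in any of the 4 libraries. The LTB gene was called, at 1.27 ± 0.52, and lost the call under most alternatives. CYP24A1 had 50.1 and 42.4 normalized reads in control and 29.5 and 24.7 in mutp53-depleted libraries and was not called. The transcription factor ETS2 had 1623 and 1541 normalized reads in control and 774 and 743 in mutp53-depleted libraries and fell by 1.06 ± 0.08, beside a median of -0.52 for its neighbours on 21q, and was not called with that median removed.

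Few genes of DNA replication, mitosis, ribosomes and the proteasome were called, where 5.89% of all tested genes were called higher and 9.55% lower. Of 35 tested DNA replication genes 1 was called lower and 0 higher, of 35 mitotic genes 1 was called higher and 1 lower, of 45 ribosomal protein genes 1 was called higher and 0 lower and of 31 proteasome subunits 0 were called. The medians were 0.01, 0.17, 0.20 and 0.32. The mitotic factor FOXM1 rose by 1.14 ± 0.08 on a neighbour median of 0.87, ANLN fell by 1.02 ± 0.08 on -0.67, the polymerase subunit POLD1 fell by 1.02 ± 0.08 on -0.81 and RPL24 rose by 1.11 ± 0.09 on 0.82. None of these 4 was called with the neighbour median removed. Among G1 regulators the inhibitors CDKN1B and CDKN2B rose by 1.07 ± 0.07 and 1.27 ± 0.16, and CCNE2 and E2F5 fell, with log2 fold changes of -1.004 ± 0.17 and -1.37 ± 0.23. CDKN1B lies on 12p, with a neighbour median of 1.14, and its sign turned with that median removed. The stress factor DDIT3 had 148 and 129 normalized reads in control and 609.8 and 566 in mutp53-depleted libraries and rose by 2.08 ± 0.12, alone among 25 heat-shock and ER stress genes. Of 26 antioxidant and iron genes 1 was called lower and 0 higher. Of 25 AP-1 and immediate early factors 2 were called higher (8%) and 1 lower (4%). Of 32 SOX, GATA, PAX and FOX factors 2 were called higher (6.25%) and 4 lower (12.5%). Shares so near those of all tested genes are no result about these 2 lists. Of 22 tested genes of MAPK feedback 5 were called higher and 2 lower, and with the neighbour median removed 2 were called higher. DUSP6, a phosphatase that switches off ERK, had 2583 and 2572 normalized reads in control and 7832 and 8034 in mutp53-depleted libraries and rose by 1.62 ± 0.06, DUSP16 and DUSP14 by 1.38 ± 0.09 and 1.20 ± 0.09, and PHLDA1 fell by 1.03 ± 0.07. Among histone modifiers the demethylases KDM5A and KDM5B rose by 1.13 ± 0.08 and 1.07 ± 0.13, on 0.88 and -0.12 for their neighbours. Neither was called with GC content and length trends removed.

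The largest changes belonged to genes of many kinds. MAGEB2, an X-linked cancer-testis antigen, had 0 and 0 normalized reads in control and 111 and 86.4 in mutp53-depleted libraries, at least 70.0-fold higher. The kinase ALPK2 had 2.90 and 1.51 normalized reads in control and 270.1 and 267 in mutp53-depleted libraries, the ubiquitin ligase MARCHF4 7.26 and 12.1 normalized reads in control and 281 and 341 in mutp53-depleted libraries and the proton channel OTOP1 7.98 and 1.51 normalized reads in control and 176 and 204 in mutp53-depleted libraries. Both depleted libraries of each were high and both control libraries near 0. The transcription factor TRPS1 and the adhesion molecule PVRL3 (nectin 3) rose by 4.91 ± 0.35 and 5.004 ± 0.52. ARHGAP30, a GTPase activator, rested on 100 against 2 reads, a ratio of 45.9 (exact 95% interval 12.4 to 384) and the globin HBB on 237 against 2 reads, a ratio of 109 (exact 95% interval 29.8 to 903) in mutp53-depleted over control cells. At the other end CD8B had 73.3 and 84.8 normalized reads in control and 0 and 0 in mutp53-depleted libraries, at least 57.0-fold lower, and the hypoxia-induced carbonic anhydrase CA9 55.2 and 65.1 normalized reads in control and 0 and 0 in mutp53-depleted libraries, at least 43.2-fold lower. The antisense transcript DBH-AS1 had 515 and 423 normalized reads in control and 14.7 and 4.11 in mutp53-depleted libraries, a log2 fold change of -5.70 ± 0.49, and the zinc finger factor MYT1 fell by 5.48 ± 0.40. Among called genes with the most normalized reads, the amino acid transporters SLC1A5 and SLC7A5 fell. SLC1A5, which imports glutamine, had 41832 and 40436 normalized reads in control and 16984 and 14460.2 in mutp53-depleted libraries and SLC7A5, which imports leucine and other large amino acids, 38227 and 34929 normalized reads in control and 13103 and 11168 in mutp53-depleted libraries, log2 fold changes of -1.39 ± 0.10 and -1.59 ± 0.10. The neighbour medians were -0.48 and -0.20, and SLC1A5 was not called with it removed, at -0.91. The hypoxia factor EPAS1 fell by 1.58 ± 0.07, the protease CTSZ fell by 1.17 ± 0.08, and PTTG1IP fell by 1.05 ± 0.08. The neighbours of PTTG1IP had a median of -0.70, and it was not called with that median removed, at -0.35, or with GC content and length trends removed, at -0.93. Those that rose include the scaffold PPFIBP1, at 1.68 ± 0.07, the condensin subunit NCAPD2, at 1.10 ± 0.08, the kinase WNK1, at 1.05 ± 0.07, and the membrane linker ezrin (EZR), at 1.17 ± 0.07. PPFIBP1, NCAPD2 and WNK1 lie on 12p with neighbour medians of 1.15, 0.92 and 0.87, whereas that of EZR was 0.15.

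Genes that are neighbours on a chromosome shifted together. Medians of the log2 fold change were -0.63 on chromosome 7, -0.54 on chromosome 21, 0.56 on chromosome 12, 0.45 on chromosome 3 and 0.27 on chromosome 17, and lay between -0.11 and 0.14 on the other 18 chromosomes. Replicate A against B within a group gave medians of at most 0.08 in size on any chromosome. At 16 h the 5 medians were -0.64, -0.51, 0.54, 0.40 and 0.26.

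In runs of at least 25 tested genes whose running median over 51 genes was at least 0.4 in size, 28 stretches were found with 2980 genes, 13 of them higher and 15 lower in mutp53-depleted cells. They held 347 genes called higher and 447 called lower, which is 26.6% of their genes against 12.6% outside. The stretches were chosen by the same fold changes, so a larger share inside them follows from the choice and is no finding. On chromosome 17 the first stretch began at 17:33307517 (hg19). The stretches covered most of chromosome 12 in 4 pieces. The first ran over 12:73725-49110781 (hg19), held 248 tested genes with a median of 0.90 at 0 h and 0.81 at 16 h, and 98 of its genes were called higher and 5 lower. GAPDH, the glycolytic enzyme used to normalize the qRT-PCR of the study, lies in it and had 25807 and 25151 normalized reads in control and 47216 and 48347 in mutp53-depleted libraries. Its log2 fold change was 0.91 ± 0.08, and the median of its neighbours was 0.90. Against this direction the sodium channel subunit SCNN1A had 1605 and 1649.8 normalized reads in control and 397 and 404 in mutp53-depleted libraries and fell by 2.02 ± 0.11. On 12q the GTPase activator SRGAP1 had 24.7 and 25.8 normalized reads in control and 403 and 414 in mutp53-depleted libraries, a rise of 3.97 ± 0.19 that went far beyond its neighbours, at 0.45. On chromosome 3 the largest stretch ran over 3:129366635-197770591, with 269 genes, a median of 0.68 and 67 genes called higher, among them TM4SF19, at 2.55 ± 0.33. The kinase MYLK, in another stretch of chromosome 3, rose by 3.08 ± 0.32 on 0.40 for its neighbours.

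On chromosome 7 the stretch over 7:149718-86849031 held 354 genes with a median of -0.79, of which 125 were called lower and 5 higher. That over 7:116592501-155759037 held 179 genes with a median of -0.62, of which 49 were called lower and 4 higher. All 7 HOX genes called lower were HOXA genes of the first of these, and 20 of the 34 tested HOX genes had a log2 fold change above 0. HOXA5, HOXA6, HOXA7 and HOXA13 had log2 fold changes of -1.59 ± 0.17, -2.04 ± 0.34, -1.38 ± 0.10 and -1.73 ± 0.31, on a neighbour median of -0.97, and with that median removed 1 HOX gene was called lower. The HOX genes called higher were HOXC13, HOXD11 and HOXD10, at 1.69 ± 0.26, 1.42 ± 0.28 and 1.19 ± 0.35. Beta-actin (ACTB), at -0.65 ± 0.08, lies on 7p with a neighbour median of -0.80. Filamin C (FLNC) on 7q went against its neighbours, with 18.1 and 12.1 normalized reads in control and 65 and 93.2 in mutp53-depleted libraries and a rise of 2.32 ± 0.32. On 21q a stretch of 105 genes had a median of -0.61. On chromosome 19 stretches of both signs followed each other, with medians of 0.66 over 92 genes from 19:36505401-40931932 and of -0.63 over 191 genes from 19:45349393-52391229. The second of these had a median GC content of 60.9%, and its median became -0.36, under 0.4 in size, with GC content and length trends removed. SPINT2, a protease inhibitor in the first of them, had 6243 and 6119 normalized reads in control and 3031 and 2834 in mutp53-depleted libraries and fell by 1.08 ± 0.08 on 0.88 for its neighbours.

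**Figure D4:**
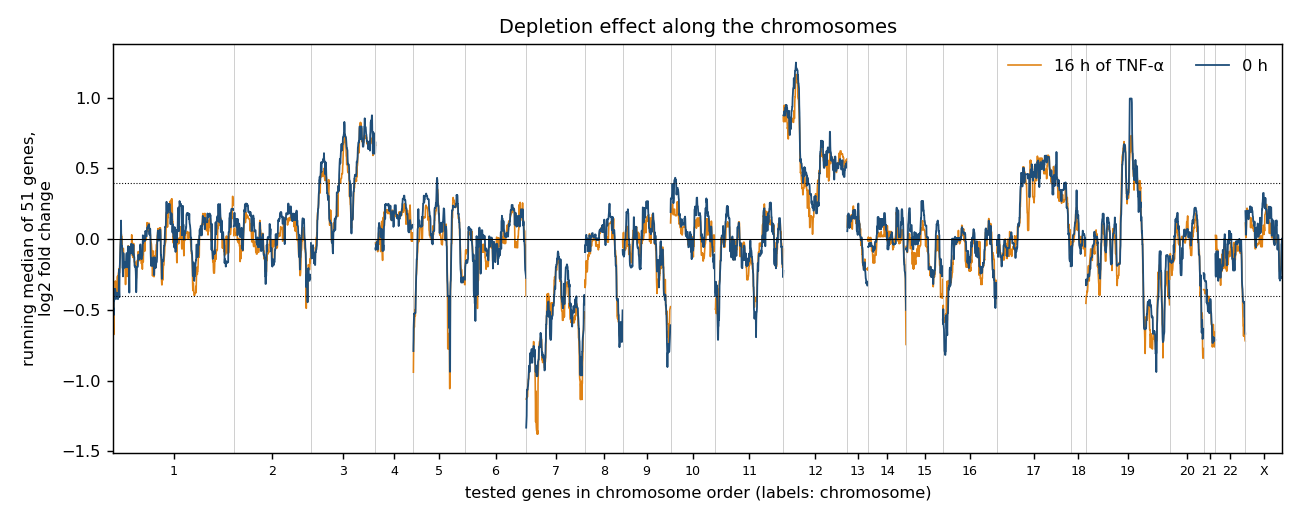
Running median over 51 tested genes of the log2 fold change of mutp53-depleted over control cells along the chromosomes, in blue at 0 h and in orange at 16 h of TNF-α, with dotted lines at 0.4 and -0.4. The 2 lines share no library and follow each other. They lie mostly above 0 on chromosomes 3 and 12 and mostly below 0 on chromosomes 7 and 21. On chromosome 17 they lie near or below 0 over the first genes and above 0 in later stretches.

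Many short stretches of lower genes lay in GC-rich regions. Over all tested genes the log2 fold change and GC content of the transcripts had a Spearman correlation of -0.29 at n = 14532 genes, which share the 4 libraries and are not independent. In 8q24.3, 16p13.3 and 9q34.3 the stretches had a median GC content of 63.9%, 63.8% and 64.0%, where that of all tested genes was 50.4%. Their medians of -0.56, -0.57 and -0.74 became -0.15, -0.12 and -0.19 once trends in GC content and exon length were removed from each library. After that step all 13 higher stretches and 6 of the 15 lower ones kept a median of at least 0.4 in size, among them both long ones of chromosome 7, at -0.81 and -0.60, and that of 12p, at 0.83.

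**Figure D5:**
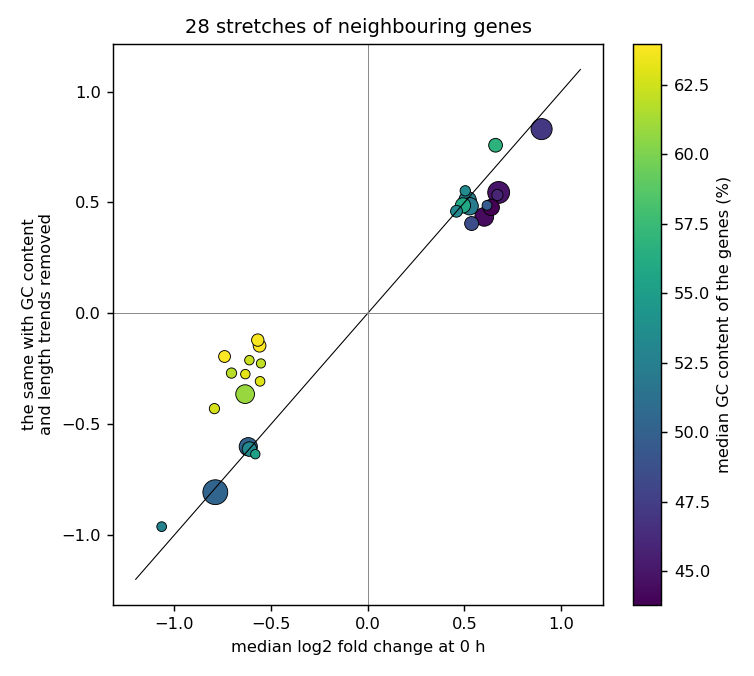
Median log2 fold change at 0 h of each of the 28 stretches (horizontal axis) against the same median with trends in GC content and exon length removed (vertical axis), with the median GC content in colour and the number of genes as the size of the circle. Stretches of the highest GC content lie above the diagonal at the lower left, closer to 0 on the vertical axis.

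The stretch with the lowest median, -1.07 over 34 genes in 5q31.3, was largely 1 signal counted many times. Of 22 tested protocadherin-γ genes 21 were called lower, with log2 fold changes between -1.09 and -0.94. These genes have variable first exons and share their last exons, and 21 of the 22 had read numbers within 2% of those of another gene within 1 Mb in every library. PCDHGB5, for example, had 414 and 408 normalized reads in control and 197 and 186 in mutp53-depleted libraries and PCDHGA9 411 and 409 normalized reads in control and 197 and 188 in mutp53-depleted libraries. Among all tested genes, 34 genes called lower and 2 called higher shared their reads with a neighbour in this way, so that their counts are not separate observations.

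Of the genes called higher, 552 of 872 stayed at least 2-fold higher than the median of their 50 neighbours, and 1050 of 1413 called lower stayed at least 2-fold lower. Most of the named genes with changes above 4-fold are among them, such as VIL1, NCAM1, JAG2, INHBB, TM7SF2, SPARC, MAOA, BIRC3 and UBE2L6, whose neighbour medians lay between -0.24 (JAG2) and 0.23 (SPARC).

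Among the called genes named here, the call was lost with the neighbour median removed for ANLN, CGN, CHRD, CLDN4, COL1A1, COL6A1, CXCL16, DUSP14, DUSP16, ETS2, FADS2, FGF18, FOXM1, FZD2, GMPS, HOXA13, HOXA5, HOXA7, IFI6, IL11, INSIG1, KDM5A, LDHB, LSS, LTB, LYZ, MVD, NCAPD2, NFKBIB, NFKBIZ, NOTCH1, PCDHGA9, PCDHGB5, PFKL, POLD1, PPFIBP1, PTTG1IP, RPL24, SLC1A5, TIGAR, VIM, VWF and WNK1, besides CDKN1B and LRP6, whose sign turned. It was lost with GC content and length trends removed for CDKN1B, CXCL16, FADS2, GMPS, IFI6, KDM5A, KDM5B, LRP6, LSS, MVD, NOTCH1, PFKL, POLD1, PTTG1IP, RPL24, SPINT2, TIMP1, VIM and WNK1. Without 1 library the call was lost, at the log2 fold change in brackets, without replicate A of control cells for CCNE2 (-0.82), CGN (0.67), CHRD (0.85), CXCL16 (-0.96), GMPS (0.98), KDM5B (0.87), LRP6 (0.93), LTK (0.86), LYZ (1.61) and TIMP1 (-0.99). Without replicate B of control cells it was lost for ANLN (-0.91), CHRD (1.48), FZD2 (0.96), HSD17B7 (-1.05), LSS (-0.95), LTB (0.06), LYZ (1.66), POLD1 (-0.99) and TDGF1 (-2.11). Without replicate A of mutp53-depleted cells it was lost for CCNE2 (-0.97), CGN (0.98), CHRD (1.25), FZD2 (0.98), LRP6 (0.97), LTB (0.69), LTK (0.94), LYZ (1.22), PHLDA1 (-0.98), TNFAIP3 (0.63) and VWF (1.65). Without replicate B of mutp53-depleted cells it was lost for CD68 (0.92), CHRD (1.08), FADS2 (-0.89), HOXD10 (1.06), HSD17B7 (-0.62), IFI6 (-0.89), MVD (-0.93), OASL (2.33), POLD1 (-0.94), SQLE (-0.94), TDGF1 (-1.82) and TIMP1 (-0.94). In these fits the lone library of a group is assumed to vary like the other groups.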

How the data were processed

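mRNA-seq was made from SW480 cells with a hairpin against LacZ (control) or p53 (mutp53-depleted), with 2 libraries per group at 0 h and at 16 h of TNF-α. Per the file headers and the study's methods, the authors mapped strand-specific 50-base reads with STAR, counted reads on exons of RefSeq genes with HOMER and scaled each library to a common total for edgeR, so that the deposited values are a signal of normalized reads, that is reads times 1 factor per library. Gene coordinates are hg19 as in the header of the table, whereas the methods name hg38, and none were converted. The deposited table also holds the authors' log2 fold changes and p-values of 4 comparisons, which were not used. The tool versions are not given in the sources used here. ChIP and nascent RNA data of the series were not analysed here.

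Whole reads were recovered from the steps of the values (100% whole within 0.011) for the alternatives that need counts. Libraries held 6108488 to 13809578 reads on genes. Genes with a mean of at least 2.5 over 8 libraries were tested with limma 3.58.1 (R 4.3.3) on log2(value + 1), with all 4 groups in 1 fit and an empirical Bayes trend, and p-values were Benjamini-Hochberg adjusted over the 14800 genes tested. edgeR was the study's test. It and DESeq2 were run as alternatives (edgeR 4.0.16 and DESeq2 1.42.0). Other alternatives changed the scaling, filter, pseudocount, samples or library set, subtracted the median of 50 neighbours, or removed trends in exon length and GC content (the median over GENCODE v44 transcripts, known for 98.2% of genes). The scripts were tested on simulated data. Where a group held 0 reads, a fold used a floor of 3 reads over the group, and intervals are exact at 95%.

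The members and gene lists were chosen with earlier results of these data known, and lists are described by counts and medians without a test. Named genes are the 12 largest changes and the 8 most abundant called genes in each direction, up to 4 called genes in each direction of a list, genes the study names, GAPDH, ACTB and, in a shifted stretch, up to 3 genes with and 2 against its direction. Others, among them further cholesterol genes, CDKN1A, MDM2, BAX, TP73, MYC, AXIN2, NOTCH1, IFI35, ISG15, RELA, CDH1, KRT8 and KRT18, were chosen after their values were seen. A few of the named genes and their values were left out and are not reported here.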

Additional observations from a re-analysis of the deposited data

Results flagged for a closer look

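The effect of mutp53 depletion was itself compared between 0 h and 16 h of TNF-α with the interaction term of the limma fit. Of the 211 genes examined by name, 37 differed at a Benjamini-Hochberg adjusted p under 0.05, where 424 of all 14800 tested genes did. Most named genes were chosen by their change at 0 h, which enters the difference. That choice favours genes whose change is smaller at 16 h, so the groups below describe these genes only. Values are the log2 fold change at 16 h minus that at 0 h, from 2 libraries in each of the 4 groups.

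Genes with a positive fitted change at 0 h and a negative one at 16 h were CCL2 (-2.24), CGN (-2.05), CTSS (-3.71), CX3CL1 (-3.20), KRT7 (-1.74), LTB (-5.71), OLR1 (-2.43), PLAT (-2.05) and TNFAIP3 (-1.95). At 16 h the change was -2.06 for CCL2 and -4.43 for LTB, but only -0.05 for KRT7 and -0.06 for PLAT. Those of CX3CL1, OLR1, TNFAIP3, CTSS and CGN at 16 h were -0.34, -0.42, -0.63, -0.73 and -0.95, all within 2-fold. The values at 0 h of CCL2 and LTB rest on few reads. Genes that were higher at 0 h and less so at 16 h were BIRC3 (-2.84), CD55 (-0.94), MAOA (-2.05), PDGFRB (-2.81), PPFIBP1 (-0.47), SAA1 (-1.85), SAA2 (-1.62), SLIT1 (-1.32), TGFB2 (-1.33) and UBE2L6 (-1.43). BIRC3 and TNFAIP3 are NF-κB targets, and of the 21 tested NF-κB genes 12 differed between the times, beside 424 of all 14800 tested genes. The rise of TNFAIP3 at 0 h rested on replicate A of mutp53-depleted cells and was 0.63 without it.

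Genes that were lower at 0 h and fell less at 16 h were CD46 (0.53), CD82 (0.79), CYP51A1 (0.55), DHCR7 (0.56), EDN3 (4.31), EHF (1.71), EPHB6 (0.74), INHBB (1.04), LAMA3 (0.63), NOTCH1 (0.57), PHLDA1 (0.53) and SFN (0.87). EDN3 had no read in mutp53-depleted libraries at 0 h, so that its value depends on the pseudocount. Genes that were lower at 0 h and fell further at 16 h were APCDD1 (-1.61), HNF4A (-0.79), HOXA5 (-1.06), NOTUM (-1.21) and SCNN1A (-0.87). UBD had no read at 0 h, and its value of -5.22 is its change at 16 h alone. No cause of these differences was tested.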

How the results depend on the processing

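The number of genes called at 0 h was 2285, ranged from 1765 with the median of 50 neighbours removed to 2513 with no filter on low values, and lay within 1.5 times the reported number under all 16 alternatives, as did the counts in each direction. Without 1 library at a time it was between 1874 and 2206. edgeR on recovered reads called 2336 genes with the quasi-likelihood test and 2362 with the exact test, and DESeq2 1955. Removing trends in GC content and length, chosen after seeing the data, left 1947 genes, 796 higher and 1151 lower. With the replicate letter as a replicate block 2298 genes were called. Deviations of same-letter libraries had correlations between -0.02 and 0.07, so that the letters share only a name and the block is no paired design.

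Counts of list members called higher went from 6 to 3 secreted matrix proteins with DESeq2, and from 8 cytokines to 4 with a pseudocount of 5, the 0 h libraries alone or DESeq2, to 5 with edgeR's exact test or neighbours removed, and to between 5 and 9 without 1 library. The 5 MAPK feedback genes became 2 with neighbours removed and between 3 and 5 without 1 library, and the 7 HOX genes called lower became 1 with neighbours removed. The cause was not tested.

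The median of chromosome 3 was 0.42 after rescaling by the median ratio, 0.42 at a pseudocount of 5, 0.35 with GC and length trends removed and between 0.43 and 0.45 without 1 library. That of chromosome 7 was -0.65 after rescaling, -0.64 and -0.58 at pseudocounts of 0.1 and 5 and between -0.63 and -0.60 without 1 library. That of chromosome 12 was 0.54 after rescaling, 0.58 and 0.53 at those pseudocounts, 0.51 with GC and length trends removed and between 0.55 and 0.58 without 1 library. That of chromosome 21 was -0.49 at a pseudocount of 5. A wider window gave 17 stretches and removed GC and length trends 18, against 28.

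Of 211 genes examined by name, 148 kept direction and call under every alternative. The direction turned for ACTB (0.15), CDKN1B (-0.071) and LRP6 (-0.042) with neighbours removed, for CCL2 with neighbours removed (-0.33) and, without 1 library, between -0.21 (without replicate A of mutp53-depleted cells) and 0.56, and for MMP9 between -1.30 and 0.37 (without replicate A of control cells). Both of the last have few reads.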
